A study of Arabidopsis thaliana with 4 samples.

Results

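Auxin response factors (ARFs) that act as repressors were followed in shoot apices of Arabidopsis thaliana. The group was taken as the 10 genes ARF1, ARF2, ETT (ARF3), ARF4, ARF9, ARF10, ARF11, ARF16, ARF17 and ARF18, picked by their locus identifiers (AGI codes), and all 10 were found among the 27322 genes with usable values. The mp clv3 plants carry mutations in MP (MONOPTEROS, ARF5) and in CLV3, and the growth notes give their alleles as mp319 clv3-7. The clv3 plants carry the CLV3 mutation according to the genotype label, while the growth notes name Col-0 in their place, and the label is followed in naming this genotype clv3. Plants aged 6 weeks were grown under days of 16 h and nights of 8 h at 22 °C, and their inflorescence apices were taken once the older flowers had been stripped. The labels describe 2 RNA-seq libraries (biological replicates) per genotype, while reads and levels are given as 1 column for each, which hides how far the libraries of a genotype differ, and no difference below has a replicate check.

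ARFs are transcription factors that bind auxin response elements in the promoters of auxin-regulated genes. Activating ARFs such as MP are held back by Aux/IAA proteins, which auxin sends to degradation, whereas repressing ARFs can occupy the same kind of element and lower transcription. The repressors fall into an ARF1 type (ARF1, ARF2, ARF9, ARF11 and ARF18), an ETT type (ETT and ARF4) and an ARF10 type (ARF10, ARF16 and ARF17). Small RNAs restrain several of them: miR160 cuts the ARF10-type mRNAs, and small RNAs made from the non-coding TAS3 transcript target ETT, ARF4 and ARF2. In the shoot, ETT and ARF4 are known for specifying the abaxial (lower) side of lateral organs and, with MP, for flower initiation.

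The small RNA sites are shown because they divide the members in a way that their expression does not enter. The mature miR160 is the same at all 3 MIR160 loci, and bases 2 to 8 are in capitals. The TAS3 stretch is the 21 bases of the TAS3 transcript (RefSeq, TAIR10.1, chr3:5862205-5862225, plus strand) whose reverse complement lies nearest to ETT and ARF4, found by matching rather than taken from an annotated small RNA, and its capitals mark bases that pair with every member site below.
miR160: uGCCUGGCucccuguaugcca
TAS3 stretch: uUUCUUGACCUUGuAAGACCc

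The matching sites lie in coding exons of the RefSeq annotation (TAIR10.1) and are given on the strand of the gene, 5′ to 3′, with bases that pair by strict complementarity in capitals.
ARF17, chr1:29274189-29274209: TGGCATgCAGGGAGCCAGGCA
ARF10, chr2:12115741-12115761: aGGaATACAGGGAGCCAGGCA
ARF16, chr4:14704141-14704161: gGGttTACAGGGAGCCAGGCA
ETT, chr2:14325941-14325961: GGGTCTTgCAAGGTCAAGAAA
ETT, chr2:14325821-14325841: aGGTCTTgCAAGGTCAAGAAA
ARF4, chr5:24309507-24309527: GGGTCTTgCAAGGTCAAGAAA
ARF4, chr5:24309717-24309737: aGGTCTTgCAAGGTCAAGAAA
ARF2, chr5:24913262-24913282: GGGTCTTgCAAGGTCAAGAAt

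With up to 3 mismatches, ARF10, ARF16 and ARF17 were the 3 genes hit by miR160 among 31346 genes with a RefSeq mRNA, and allowing 4 mismatches added none. The TAS3 stretch hit ETT and ARF4 with 1 mismatch, which its choice fixed, and ARF2 with 2 mismatches, which it did not. At 3 mismatches it hit 4 genes and at 4 mismatches 18 genes, of which these 3 were the members. ARF1, ARF9, ARF11 and ARF18 held neither site within 4 mismatches. The MIR160, MIR390 and TAS3 genes themselves were not analysed here.

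**Figure D1:**
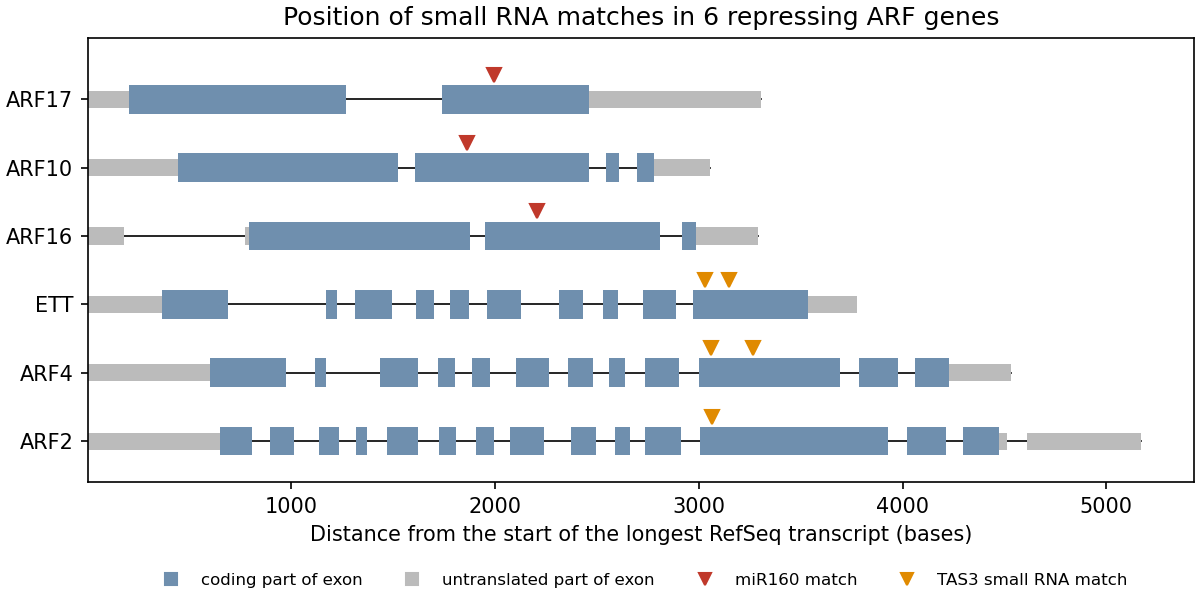
Gene models of the 6 repressing ARF genes with a small RNA match, drawn to scale against the distance in bases from the start of the longest RefSeq transcript; boxes are exons, lines introns and triangles the matches. ARF10, ARF16 and ARF17 have 1 miR160 match each in a coding exon, ETT and ARF4 have 2 TAS3 matches each, and ARF2 has 1.

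The mp clv3 column holds 103347441 reads and the clv3 column 100328819. MP was checked first, with 5063 reads (14.5 RPKM) in mp clv3 and 25336 reads (74.8 RPKM) in clv3, where RPKM is a read count scaled for the length of the gene model and for all reads of the column. Reads on MP thus remained in mp clv3 at a 5.15-fold lower level. CLV3, labelled as mutated in both genotypes, had 1278 reads in mp clv3 and 110 in clv3, an 11.3-fold higher level (8.56 to 15.1). All 6 shoot meristem markers were detected in both genotypes. The authors' deposited table calls 3 of them higher and 3 lower in mp clv3. Of the genes that averaged 100 reads or more, it calls 34.3% higher and 53.3% lower. WUS, which maintains stem cells, and STM, which keeps meristem cells undifferentiated, were 3.82-fold and 2.2-fold higher in mp clv3. BP, a related homeobox gene, was 3.77-fold lower. Summed levels of the 6 markers were 329 RPKM in mp clv3 and 216.5 RPKM in clv3. The higher sum rests on STM alone, with 217 RPKM in mp clv3 and 98.8 RPKM in clv3. Of the 5 root markers, RHD6 had 0 reads in both columns and PLT1 0 reads in mp clv3 and 2 in clv3, while WOX5, an organiser gene of the root tip, had 149 and 10 reads, and SCR and SHR, which are also active in shoots, were 1.88-fold and 1.86-fold lower in mp clv3. The authors' deposited table calls all 10 tapetum and pollen wall markers lower in mp clv3, with MS2, DYT1 and MYB80 at 0 reads there. Their summed level was 13.6 RPKM in mp clv3 against 635 RPKM in clv3. Nearly all of the mp clv3 sum is LAP6, which was 12.5-fold lower, with 13.4 RPKM in mp clv3 and 167 RPKM in clv3. All 5 carpel and ovule markers measured were also lower in mp clv3, with STK and INO at 0 reads there. Their summed level was 10.1 RPKM in mp clv3 and 120 RPKM in clv3. SHP1 makes up most of the mp clv3 sum and was only 1.30-fold lower, with 9.43 RPKM in mp clv3 and 12.2 RPKM in clv3. The call of INO rests on 10 reads in clv3, and the counting interval of its ratio includes 1. Within the tapetum and pollen wall list the largest differences were those of MS2, A9 (2 reads in mp clv3 and 8430 in clv3) and CYP704B1 (3 and 9077). With the floor of 3 read pairs standing for 0, MS2 was 3397-fold lower, and its counting interval starts at 2762-fold. Within the carpel and ovule list the largest differences were those of CRC, a carpel gene (393-fold lower), STK, an ovule identity gene, and SHP2 (13.9-fold lower). STK was 64.9-fold lower at the same floor, and its counting interval starts at 52.3-fold.

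The 3 most abundant repressing ARFs, ARF2, ETT and ARF1, were slightly higher in mp clv3, ARF9 showed almost no difference, and the other 6 were lower, led by ARF11 and ARF17. By the false discovery rate (FDR) of the authors' deposited table, 6 of 10 were lower and 3 higher at a threshold of 0.05. Over all genes 72.7% were called, 46.3% lower and 26.4% higher, and over the 18832 genes that averaged 100 reads or more 87.6% were called, 53.3% lower and 34.3% higher. All 10 members pass that minimum. The counts of calls are therefore near the background. At least 2-fold, 2 members were lower and 0 higher, against 22.2% and 10.6% of all genes and 13.7% and 9.92% of genes over the minimum. At least 1.5-fold, 5 members were lower and 0 higher, against 30.3% and 15% of all genes and 24.1% and 14.9% of genes over the minimum. ARF4 and ARF10 stand near that fold: scaled to the median gene both fall short of it and 3 members are left, and with upper-quartile scaling ARF4 falls short and 4 are left. The median log2 ratio of the 10 genes (mp clv3 over clv3) was -0.49, while it was -0.11 over all genes and -0.12 over those with at least 100 reads. In bulk tissue, fewer cells of a type and less RNA per cell cannot be told apart, which holds for every difference given here.

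**Figure D2:**
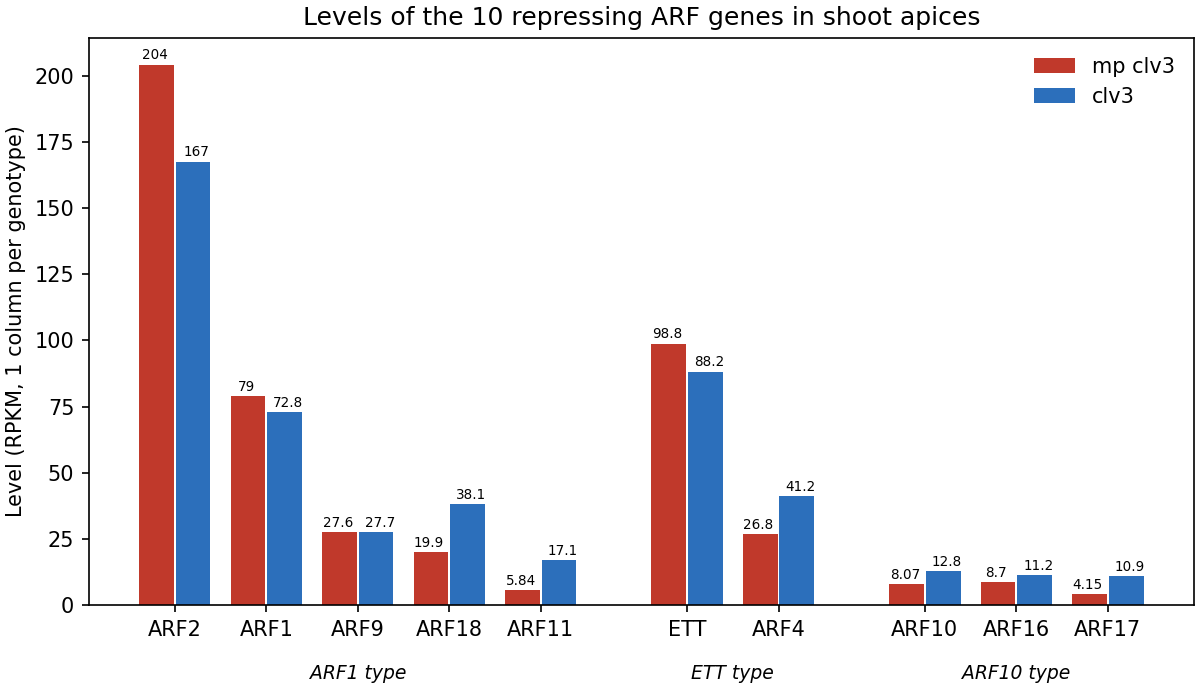
Level of each repressing ARF gene in RPKM, as the single deposited value of mp clv3 (red) and clv3 (blue), grouped by type. ARF2, ETT and ARF1 stand highest in both genotypes and are higher in mp clv3, while all 3 ARF10-type genes lie below 13 RPKM and are lower in mp clv3.

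ARF2 (AT5G62000), which limits cell division in the integuments and promotes leaf senescence and shedding of floral organs, was the most abundant repressor in both genotypes. It had 74144 reads (204 RPKM) in mp clv3 and 59057 reads (167 RPKM) in clv3, which ranks it 519th and 689th of all genes by level. Its ratio of mp clv3 over clv3 was 1.22, with an exact 95% counting interval from 1.20 to 1.24. ARF1 (AT1G59750), which acts with ARF2 in senescence and organ shedding, had 20270 reads (79.0 RPKM) in mp clv3 and 18154 reads (72.8 RPKM) in clv3, a ratio of 1.08 (1.05 to 1.12). Both rose by a small amount in the authors' deposited table, at an FDR of 1.03e-282 for ARF2 and 6.18e-15 for ARF1, and ARF2 rose more. The level of ARF1 relative to ARF2 was 0.387 in mp clv3 and 0.435 in clv3, a ratio of ratios of 0.889 with a 95% interval from 0.861 to 0.918. Such a ratio within a column does not depend on how the columns are scaled.

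The other ARF1-type genes spanned from almost no difference to the largest one. ARF9 (AT4G23980), known from the suspensor of the embryo, had 7166 reads (27.6 RPKM) in mp clv3 and 6975 reads (27.7 RPKM) in clv3, with an FDR of 0.89 in the authors' deposited table and a ratio of 0.997 (0.952 to 1.05). With the columns scaled so that the median gene with at least 100 reads shows no change, a shift of 0.12 on the log2 scale, ARF9 would instead be higher in mp clv3, with a log2 ratio of 0.11 and an interval above 0. ARF18 (AT3G61830), whose counterpart in oilseed rape (Brassica napus) affects seed weight, had 4839 reads (19.9 RPKM) in mp clv3 and 8977 reads (38.1 RPKM) in clv3, 1.91-fold lower (1.82 to 2.01). ARF11 (AT2G46530) had 1470 reads (5.84 RPKM) in mp clv3 and 4188 reads (17.1 RPKM) in clv3, a ratio of 0.341 (0.313 to 0.371), and it was the member that differed most. These related genes thus did not move as a block. ARF11 fell 2.93-fold relative to ARF9 (2.66 to 3.22) and 1.54-fold relative to ARF18 (1.39 to 1.69). The level of ARF18 was 0.722 of that of ARF9 in mp clv3 and 1.38 times that of ARF9 in clv3, so their order turned round.

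The ETT-type genes, which share the TAS3 sites shown above, differed from each other. ETT (AT2G33860), which patterns the gynoecium and acts on the abaxial side of organs, had 24180 reads (98.8 RPKM) in mp clv3 and 20941 reads (88.2 RPKM) in clv3, a ratio of 1.12 (1.09 to 1.15) and an FDR of 2.80e-33 in the authors' deposited table. ARF4 (AT5G60450), which overlaps with ETT in abaxial identity, had 8639 reads (26.8 RPKM) in mp clv3 and 12866 reads (41.2 RPKM) in clv3, 1.53-fold lower (1.48 to 1.59) at an FDR of 4.93e-211. ETT was thus somewhat higher and ARF4 lower in the same apices. ETT stood at 3.68 times the level of ARF4 in mp clv3 and at 2.14 times in clv3, and ARF4 fell 1.72-fold relative to ETT (1.64 to 1.80). Of the 3 members with a TAS3 site, ETT and ARF2 were higher and ARF4 was lower. Among genes that averaged 100 reads or more, 34.3% were called higher and 53.3% lower.

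All 3 miR160-targeted genes were lower in mp clv3, by unequal amounts, where 53.3% of genes that averaged 100 reads or more were called lower. A lower level was not particular to them. Of the 4 members with neither small RNA site, 2 were also lower, ARF11 by 2.93-fold and ARF18 by 1.91-fold, and 1 was higher. ARF10 (AT2G28350) and ARF16 (AT4G30080), which act together in the root cap and in seed dormancy, had 1890 and 2121 reads (8.07 and 8.70 RPKM) in mp clv3 and 2918 and 2663 reads (12.8 and 11.2 RPKM) in clv3. ARF10 was 1.59-fold lower (1.46 to 1.73) and ARF16 1.29-fold lower (1.19 to 1.40). ARF17 (AT1G77850), which is needed in anthers for callose and the pollen wall, had 890 reads (4.15 RPKM) in mp clv3 and 2277 reads (10.9 RPKM) in clv3, 2.64-fold lower (2.36 to 2.95). In clv3 the levels of these genes lay close together, between 10.9 and 12.8 RPKM, whereas in mp clv3 ARF17 stood at 0.477 of the level of ARF16 and 0.514 of that of ARF10. Relative to ARF16, ARF17 fell 2.04-fold (1.78 to 2.34) and ARF10 1.23-fold (1.10 to 1.38). Summed, the ARF10 type had 20.9 RPKM in mp clv3 and 35.0 RPKM in clv3, 1.67-fold lower. The tapetum and pollen wall markers and the carpel and ovule markers moved the same way, and their part in the values of ARF17 and of the other lower members was not tested.

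Across types, differences of like size occurred. ARF11 and ARF17 differed from each other by a ratio of ratios of 0.898 (0.783 to 1.03), and ARF10 and ARF4 by 0.965 (0.881 to 1.06), so both intervals include 1. Of 10 pairs compared, these were the only pairs whose interval did so. The intervals cover counting error in these columns and not the spread between plants.

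**Figure D3:**
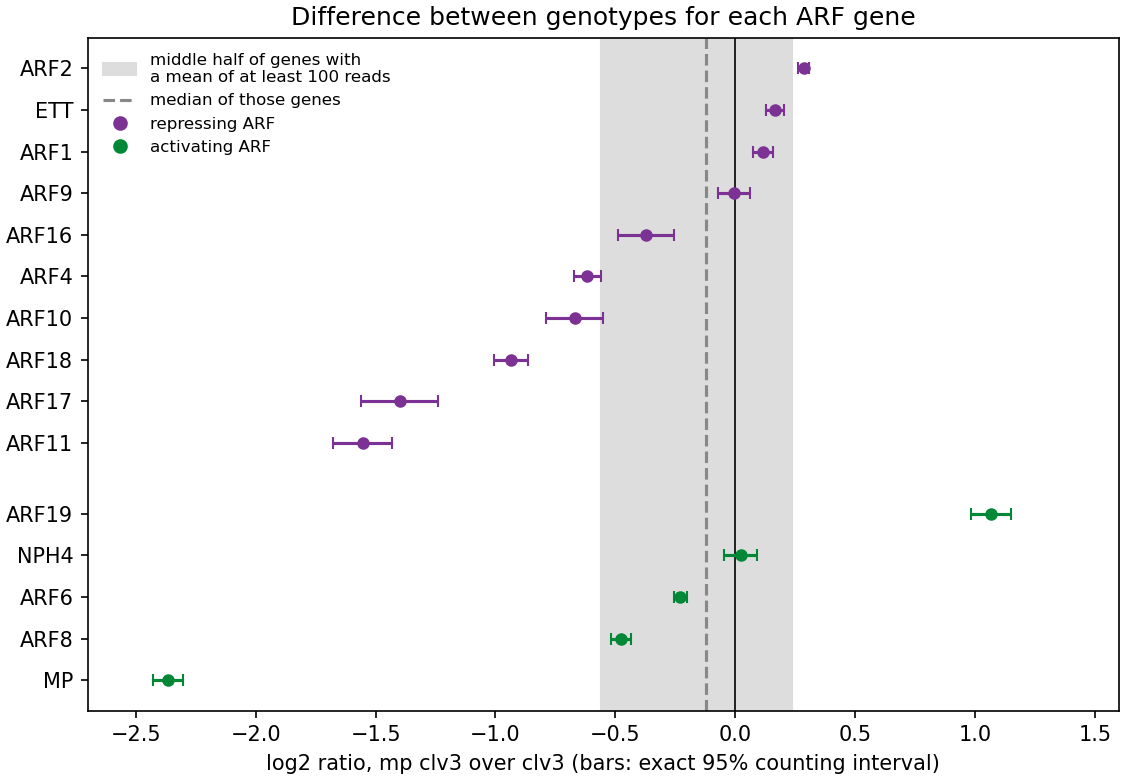
log2 ratio of mp clv3 over clv3 for the 10 repressing (purple) and 5 activating (green) ARF genes, with exact 95% counting intervals, beside the median and middle 50% of genes that averaged 100 reads or more. ARF2 at 0.29 lies above that middle range, ETT, ARF1, ARF9 and ARF16 lie within it, and ARF4, ARF10, ARF18, ARF17 and ARF11 lie below it.

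The order of levels was alike at the top and changed below it. ARF2, ETT and ARF1 led in this order in both genotypes, and ARF17 came last in both. In mp clv3 the order between them was ARF9, ARF4, ARF18, ARF16, ARF10 and ARF11, and in clv3 it was ARF4, ARF18, ARF9, ARF11, ARF10 and ARF16. Counting intervals of neighbours overlapped for ARF9 with ARF4 and for ARF16 with ARF10 in mp clv3, and for ARF16 with ARF17 in clv3. The 3 leading genes together took 42.2%, 20.5% and 16.3% of the summed level in mp clv3, and 34.3%, 18.1% and 14.9% in clv3. ARF11 took 1.21% in mp clv3 and 3.51% in clv3.

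The summed level of all 10 genes was almost the same, at 483 RPKM in mp clv3 and 488 RPKM in clv3. This sum rests on ARF2. Without it the others reached 279 RPKM in mp clv3 and 320 RPKM in clv3, a ratio of 0.871, while the ratio over all 10 was 0.991. That overall ratio turned to 1.07 when the median gene was set to no change and to 1.02 with upper-quartile scaling, so no direction is given for the sum.

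The authors' deposited table calls 3 of the 5 activating ARFs lower, the mutated MP among them, and 1 higher, against 53.3% and 34.3% of genes over the minimum. MP fell most, ARF8 and ARF6, which promote flower maturation, were 1.39-fold and 1.17-fold lower, NPH4 (ARF7) had 15.9 RPKM in mp clv3 and 15.7 RPKM in clv3 and was not called, and ARF19, its partner in lateral root formation, was 2.09-fold higher. Scaled to the median gene, NPH4 had a log2 ratio of 0.14 with an interval above 0, as ARF9 did. The sum of the activating ARFs was 208 RPKM in mp clv3 and 298 RPKM in clv3. The summed level of repressing over activating ARFs was 2.32 in mp clv3 and 1.64 in clv3. Without MP, the mutated gene, these ratios were 2.50 in mp clv3 and 2.19 in clv3, and without both MP and ARF2 they were 1.44 in mp clv3 and 1.44 in clv3. Relative to MP itself, ETT stood at 6.81 times its level in mp clv3 and 1.18 times in clv3, and ARF4 at 1.85 times in mp clv3 and 0.55 times in clv3. These shifts come mainly from the denominator: MP was 5.15-fold lower, while ETT had a ratio of 1.12 and ARF4 was itself 1.53-fold lower. The 8 ARF genes of the chromosome 1 cluster (ARF12 to ARF15 and ARF20 to ARF23) had 0 reads in both columns. Of the 27322 genes, 4706 had 0 reads in mp clv3 and 3150 in clv3. Whether sequences of these 8 genes recur elsewhere in the genome was not checked, so 0 reads need not mean no expression.

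**Figure D4:**
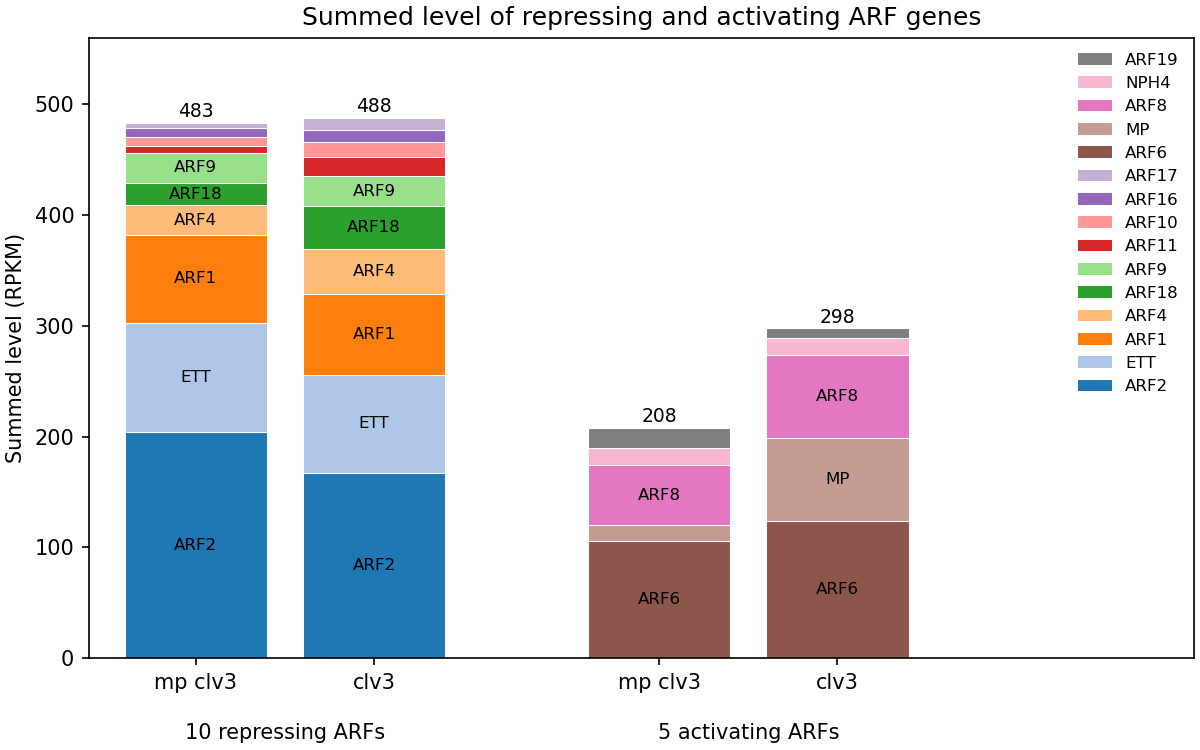
Summed level in RPKM of the 10 repressing and the 5 activating ARF genes in mp clv3 and clv3, stacked by gene from the most abundant in clv3 at the bottom. The repressing sum is 483 in mp clv3 and 488 in clv3, and the activating sum is 208 in mp clv3 and 298 in clv3.

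None of the co-repressor and small RNA pathway genes listed differed by 2-fold (0 of 11). Most genes did not either: of those that averaged 100 reads or more, 13.7% were at least 2-fold lower and 9.92% at least 2-fold higher. Of the same genes 53.3% were called lower and 34.3% higher, and their median log2 ratio was -0.12. Among 5 TOPLESS co-repressors, which many repressors recruit to silence genes, the authors' deposited table calls 2 lower and 3 higher, and the median log2 ratio was 0.19. TPR1 was 1.25-fold lower, TPR3 1.20-fold lower and TPR2 1.18-fold higher, with 30.7, 23.3 and 52.2 RPKM in mp clv3 and 38.4, 28.0 and 44.3 RPKM in clv3. Of 6 genes that make or load the TAS3 small RNAs, 5 were lower and 1 higher, with a median of -0.17. DCL4, the dicer that releases them, was 1.59-fold higher (22.2 RPKM in mp clv3 and 14.0 RPKM in clv3). AGO7, which binds miR390 to start their production, was 1.29-fold lower (6.11 RPKM in mp clv3 and 7.91 RPKM in clv3), and AGO1, the general slicer, 1.19-fold lower. Scaled to the median gene, SGS3 turned to a log2 ratio of 0.00 and the intervals of SGS3, RDR6 and DRB4 included no change.

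ETT and ARF4 act with KANADI and YABBY genes in abaxial identity. The authors' deposited table calls 5 of 6 partners lower, all of them 2-fold or more, and KAN4 higher (1.38-fold), and their median log2 ratio was -2.12. Among genes that averaged 100 reads or more, 53.3% were called lower and 34.3% higher, and 13.7% were at least 2-fold lower. The median of those genes was -0.12. FIL, a YABBY gene, had 90 reads (0.841 RPKM) in mp clv3 and 8200 reads (79.0 RPKM) in clv3, and YAB3, its close relative, had 36 reads (0.274 RPKM) in mp clv3 and 4211 reads (33.0 RPKM) in clv3. KAN1, a GARP-type regulator that acts with ETT, was 4.89-fold lower (4.32 to 5.54), with 2.95 RPKM in mp clv3 and 14.4 RPKM in clv3.

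Genes reported under the control of single repressors went both ways, and no expected direction was set for them. As background, 53.3% of genes that averaged 100 reads or more were called lower and 34.3% higher, with a median log2 ratio of -0.12. For ETT or ARF4, the authors' deposited table calls 3 of 6 lower and 2 higher, and the median log2 ratio was -1.09. HEC1, a bHLH gene of the gynoecium, was 6.18-fold lower (36 reads in mp clv3 and 215 in clv3) and BP was lower as given above, while SPT, another bHLH gene of the gynoecium, was 3.49-fold higher (128 RPKM in mp clv3 and 36.6 RPKM in clv3) and STM was higher. Of 6 reported under ARF2, 4 were lower and 1 (CGA1, 52 reads in mp clv3 and 25 in clv3) was higher, with a median of -0.28. The call of CGA1 rests on few reads, since the exact interval of its ratio starts at 0.962. GNC, a GATA factor of greening, was 2.74-fold lower, the homeobox gene HB33 1.55-fold lower (102 RPKM in mp clv3 and 158.5 RPKM in clv3) and the cyclin gene CYCD3;1 1.29-fold lower.

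Of 5 genes reported under ARF17, 3 were lower and 1 higher, with a median log2 ratio of -3.63. The background calls were 53.3% lower and 34.3% higher among genes that averaged 100 reads or more. CALS5, the callose synthase of the pollen wall, was 12.4-fold lower (118 reads in mp clv3 and 1422 in clv3). GH3.2 and GH3.3, enzymes that inactivate auxin by conjugation, were lower by 15.1-fold and 14.5-fold, whereas GH3.6 of the same family was 6.84-fold higher (136 RPKM in mp clv3 and 19.9 RPKM in clv3) and GH3.5 had 50.1 RPKM in mp clv3 and 49.6 RPKM in clv3. GH3.5 was not called, but its log2 ratio was 0.13 with median scaling and 0.05 with upper-quartile scaling, both with an interval above 0. CALS5 is itself an anther gene, and the tapetum and pollen wall markers given above were lower too. Their part in its value was not tested.

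**Figure D5:**
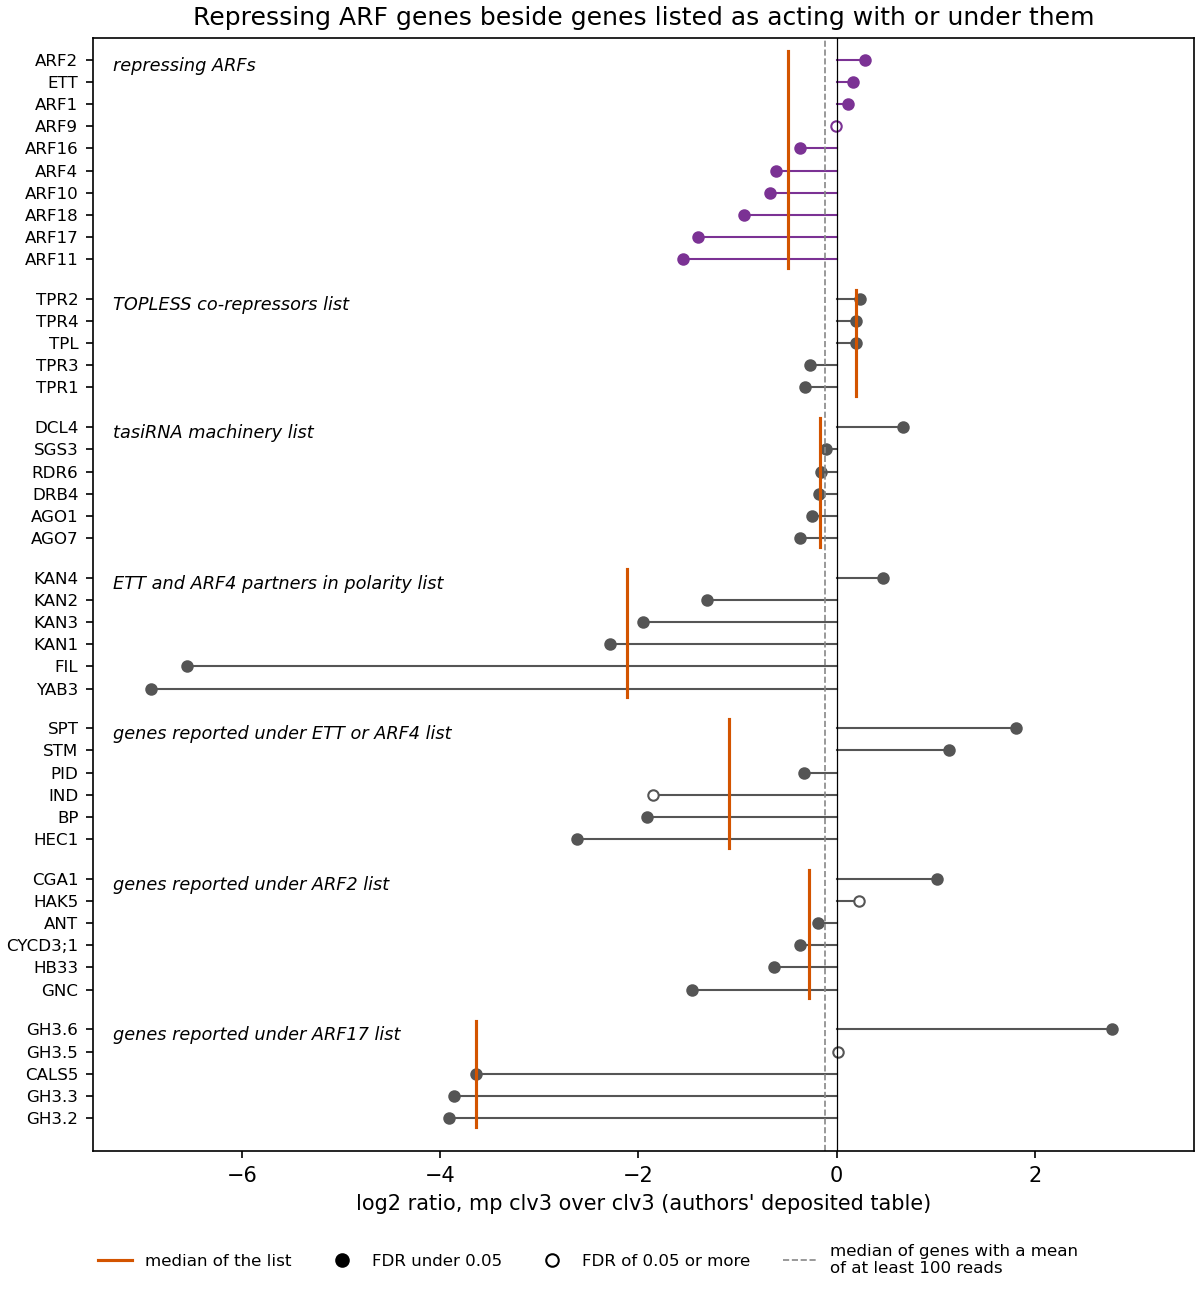
log2 ratio of mp clv3 over clv3 in the authors' deposited table for the 10 repressing ARFs and for genes listed as acting with or under them, 1 gene per row; open circles have an FDR of 0.05 or more, and orange lines are list medians. The members span -1.55 to 0.29, the polarity partners -6.91 to 0.47.

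No stretch of 50 bases in the longest transcript of any member recurred elsewhere in the nuclear chromosomes of TAIR10.1 (0 of 10 genes), and the only annotated overlap with another gene was one of 6 bases between ARF1 and AT1G59760 on the opposite strand.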

How the data were processed

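Libraries were strand-specific and read as pairs of 100 bases, per the labels' protocols. Per the submitters' processing notes, CASAVA 1.7 and BWA were used with TAIR10. Not given in the sources used here are the counter, its use of strand and how the 2 libraries of a genotype became 1 column. The authors deposited read counts per gene (estimated counts, with 0 written as 0.5 and read here as 0), RPKM, a log2 ratio and an FDR (an adjusted p-value) whose test is not named, per the file headers. Of 27323 genes, 1 with misplaced cells (AT1G01010) was left out.

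The edgeR test planned for libraries could not be run on 1 column per genotype. Calls are those of the authors' deposited FDR, and ratios were computed from reads scaled by the column totals (1.03). Exact Clopper-Pearson 95% intervals were computed on read pairs (reads divided by 2), since 82.5% of counts from 1 to 9 in mp clv3 and 83.3% in clv3 were even. Intervals of a ratio of ratios are log-normal. A gene at 0 was set to a floor of 3 read pairs. Intervals and floors cover counting error only. In tests on simulated counts drawn from the 17405 genes with at least 100 reads in both columns, 94.4% of ratio intervals and 94.3% of ratio-of-ratios intervals covered the true value. These draws held counting error alone and no spread between libraries, so coverage near 95% was built in and checks only the computation.

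The members, lists and pairs were chosen with earlier results of these data known. Named genes are the members, MP, CLV3, all activating ARFs and, per list, the 3 largest changes among called genes (FDR below 0.05) that reach 100 reads in either genotype. KAN4, CGA1, GH3.5, GH3.6, SGS3, RDR6, DRB4, DYT1, MYB80, LAP6, INO, SHP1, PLT1, RHD6 and, in the ETT list, STM were named after their values were seen. Sequences come from the RefSeq genome and annotation of TAIR10.1. Alternatives were other scalings, pseudocounts, thresholds and filters. Python 3.11.15, pandas 2.3.3, numpy 2.4.6, scipy 1.17.1 and matplotlib 3.10.9 were used.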

Additional observations from a re-analysis of the deposited data

How the results depend on the processing

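No paired analysis was possible because the values come as 1 column for each genotype, with no numbers of replicates, and for the same reason no library could be left out and edgeR and DESeq2 were not run. Of 50 log2 ratios of single members under 5 settings, 48 kept their direction, and ARF9 (-0.0038) turned to 0.11 with median scaling, where its interval excludes 0, and to 0.04 with upper-quartile scaling, where it does not. Pseudocounts could not change a call. The authors' FDR and the counting intervals on read pairs both gave 6 lower and 3 higher members. By those intervals the counts became 6 and 4 with median scaling. At 1.5-fold in place of 2-fold, 5 members were lower, 3 with median scaling and 4 with upper-quartile scaling. The ratio of summed RPKM over all members (0.991) was 1.07 with median scaling, 1.02 with upper-quartile scaling, 0.975 with quantile normalization and 0.871 without ARF2. For the ARF1 type (1.04) it was 1.13, 1.07 and 1.02 under these scalings and 0.850 without ARF2, and for the ETT type (0.972) 1.05 with median scaling and 0.999 with upper-quartile scaling. For the ARF10 type (0.597) it was 0.648 with median scaling and 0.629 with quantile normalization. Repressing over activating sums were 2.50 in mp clv3 and 2.19 in clv3 without MP, and 1.34 in mp clv3 and 1.08 in clv3 without ARF2. Scalings of the 1.5-fold count, upper-quartile scaling of intervals, leaving out the top gene of each type and the ratios of ratios were chosen after the data were seen.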
